A study of Danio rerio with 17 samples.

Results

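Cytokine signalling and immune cell genes were followed in liver samples of zebrafish. The set holds the probe sets whose single platform gene symbol names an interleukin, chemokine, interferon, tumour necrosis factor, JAK, STAT, SOCS, toll-like receptor, NF-kB, IRF, MHC or CD antigen gene or a leukocyte gene such as ptprc, lcp1, mpx or lyz, with cd59 and cd63 left out. The pattern matched 119 probe sets of 95 genes, out of 8793 genes with a single symbol. The brightest probe set stood for each gene, chosen by its mean over the 17 arrays. Total liver RNA was hybridised to Affymetrix arrays, 1 array per fish. The fish came from a factorial design of sex and dietary carbohydrate, with separate fish as biological replicates. Of the females, 5 ate the 25% diet (numbered 3, 20, 24, 49 and 51) and 5 the 0% diet (numbered 7, 8, 10, 25 and 27). Of the males, 3 ate the 25% diet (numbered 52, 53 and 54) and 4 the 0% diet (numbered 11, 26, 30 and 66). The design text of the series swaps the male numbers, and the label of each fish was used instead. Strain and age are not given in the sources used here.

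Cytokines are secreted messengers of the immune system. Many interleukins and the interferons bind receptors that carry JAK kinases, which phosphorylate STAT transcription factors, and SOCS proteins are induced by the pathway and shut it off. Tumour necrosis factor and toll-like receptors instead release NF-kB from its inhibitors, the I-kB proteins, while IRF factors drive interferon genes and the genes that interferons induce. Antigen is shown to T cells by class I molecules, which need beta-2 microglobulin, and by class II molecules, whose invariant chain is CD74. In the liver these genes are active both in hepatocytes, which answer inflammatory cytokines with acute phase proteins, and in resident macrophages and other leukocytes.

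Values are log2 expression values, and differences are female minus male or 25% minus 0%, each with its standard error from the limma fit over the 15502 probe sets that are not controls. A gene was called at an adjusted p under 0.05. Hepatocyte markers averaged 11.14 to 11.81 per fish over 14 genes, so the labelled tissue was present in every sample. Averaged over the diets, 6 of the 14 were called lower in females and 0 higher (median -0.18), where 5.57% of all probe sets were lower. Without male fish 11, 52 and 66, 7 of 14 were called lower and 0 higher (median -0.37), where 9.37% of all probe sets were called in either direction. The part of this difference in the genes of the set was not tested. Markers of other tissues also differed between fish. The mean of 19 intestinal epithelium markers was 8.27 in male fish 52, 7.33 in male fish 11 and 7.73 in male fish 66, against 4.11 to 5.07 in the other 14 fish. Ovary markers averaged 5.77 ± 0.32 (SD, n = 5) in females on 25%, 4.06 ± 0.47 (SD, n = 5) in females on 0%, 3.42 ± 0.15 (SD, n = 3) in males on 25% and 3.48 ± 0.12 (SD, n = 4) in males on 0%. Exocrine pancreas markers lay between 6.04 and 11.34. The sex averaged differences of the genes described at length are therefore also given without male fish 11, 52 and 66. That fit keeps only male fish 53 and 54 on 25% and male fish 26 and 30 on 0%. It is not balanced for all tissues. The 17 exocrine pancreas markers had a median sex difference of 1.19 in it, against -0.17 with all fish, and 0 passed in either fit. The part of pancreas RNA in the differences of that fit was not tested. A call lost there may reflect the smaller number of males or the values of the 3 left out, which cannot be told apart. In whole samples, fewer cells of a type and less RNA per cell cannot be told apart.

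Of the 7 brightest genes of the set, 4 serve antigen presentation. Cd74a averaged 10.09 over the 17 fish, b2m (beta-2 microglobulin) 9.93, cd74b 8.34 and the class I gene mhc1zba 8.20. With them stood cd68, a lysosomal glycoprotein used as a macrophage marker in mammals, at 9.27, nfkbib, an I-kB inhibitor of NF-kB, at 8.26 and the sialomucin gene cd164 at 8.0. These were the 7 genes that averaged 8 or more. The other 8 genes of the MHC group were dimmer, and the median level of all 12 was 3.70, with 4 averaging below the array medians. Probe sets differ in how strongly they hybridise, so this order describes signals and does not rank transcript amounts. Signal was low for the interleukin genes. The interleukin gene il12bb and the receptor genes il13ra2, il17rd and il20ra averaged between 2.5 and 3.07, and the interferon gene ifnphi1 averaged 2.95. Among the chemokine genes, ccl19a.1 averaged 6.45 and ccl25b 5.67, while the median of that group was 3.42. The array medians lay between 3.52 and 3.61, and the table holds no detection calls. Of the 95 genes, 48 lay above the array's median on all 17 arrays (50.5%, against 38.9% of all probe sets), 20 lay below it on all 17 and 27 were mixed. Genes in the last 2 classes are of unproven detection, so their differences are uncertain in size.

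**Figure D1:**
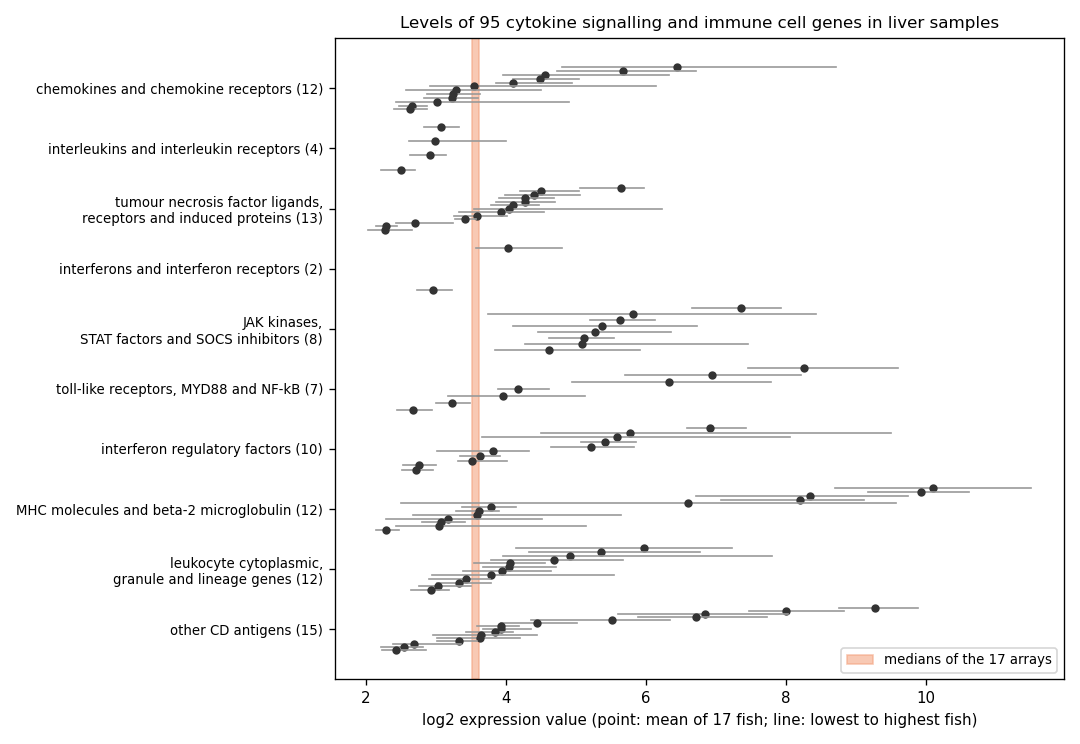
Mean log2 expression value of each of the 95 genes over 17 fish (points) with the lowest and highest fish (lines), grouped by role, with the number of genes in parentheses; the shaded band spans the medians of the 17 arrays. Cd74a, b2m, cd74b, mhc1zba, cd68, cd164 and nfkbib lie farthest right, interleukin genes lie at or below the band, and long lines mark genes that differ widely between fish.

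The sexes were compared to ask which of these genes differ between female and male liver samples. Averaged over the diets, 8 of the 95 genes passed: 2 were higher and 6 lower in females, where 8.02% and 5.57% of all probe sets were. The calls make up 8.42% of the set, against 13.6% of all probe sets tested, so they were no more frequent here than on the array as a whole. With each array centred on its median the split was 1 higher and 8 lower, where 1064 of all probe sets were higher and 1071 lower. With quantile normalization it was 3 higher and 7 lower, where 1199 of all probe sets were higher and 709 lower. The median difference of the 95 genes was -0.16, with 67 negative and 28 positive, against a median of 0.01 over all probe sets. Of all probe sets, 53% were positive. Without male fish 11, 52 and 66 the median was -0.06, with 59 negative and 36 positive, where 49.9% of all probe sets were positive. In that fit 4 genes passed (4.21% of 95, against 9.37% of all probe sets): cd248a, cxcl14, mpx and tnfaip6. Tnfaip6, a hyaluronan-binding protein gene that tumour necrosis factor induces in mammals, differed by -0.25 (adjusted p = 0.0283). Its other probe set differed by 0.0015 in that fit (adjusted p = 0.993), so this call rested on the brightest probe set.

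Cd248a stood at the top of the genes lower in females. Its mammalian counterpart encodes endosialin, a membrane protein of pericytes and fibroblasts. On 25% carbohydrate, cd248a measured 3.25, 3.32, 3.10, 3.29 and 2.96 in females and 3.57, 4.16 and 3.95 in males. On 0% it measured 3.76, 3.45, 3.62, 3.44 and 3.60 in females and 4.44, 4.08, 4.12 and 3.79 in males. Every female lay below every male on the same diet, although 7 of 10 females lay below the array's median, so that the size of the difference is not exact. The averaged difference was -0.62 ± 0.10 (adjusted p = 0.000702). It was -0.70 without the 3 males (adjusted p = 0.000456), so the call did not rest on them. Cd248a was also lower in females within each diet, by -0.71 ± 0.15 on 25% (adjusted p = 0.00802) and by -0.53 ± 0.13 on 0% (adjusted p = 0.0431). The first of these calls was lost without male fish 53 (adjusted p = 0.0593). The second was lost in 13 of 17 leave-one-out fits, where the adjusted p reached 0.126. Of 13 endothelium and stroma markers, 1 was lower in females (sparc, -1.36, adjusted p = 0.0156), with a list median of -0.30. Of all probe sets, 5.57% were lower. Sparc did not pass without the 3 males (-0.90, adjusted p = 0.0623). The part of stromal RNA in the cd248a difference was not tested.

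Cxcl14, a chemokine gene that mammalian epithelia express at rest, was the other gene that kept its call throughout the averaged fits. It ranged from 4.10 to 4.42 in females with a median of 4.30, and from 4.38 to 5.04 in males with a median of 4.81. Only male fish 26 (4.38) fell within the female range. The averaged difference was -0.47 ± 0.09 (adjusted p = 0.00224), and -0.35 without the 3 males (adjusted p = 0.0373). At 0% the difference was -0.53 ± 0.12 (adjusted p = 0.0243), a call that was lost without female fish 7 or 8 or male fish 11, 30 or 66 (highest adjusted p = 0.0805). At 25% it was -0.41 ± 0.13 and did not pass (adjusted p = 0.0852).

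The other 6 called genes showed smaller or less steady differences, and none of the 6 passed without male fish 11, 52 and 66. The differences of coro1b and ikzf5 were no smaller in that fit. Irf2bp2a, whose product in mammals is a corepressor that binds IRF2, ranged from 4.65 to 5.33 with a median of 5.05 in females and from 5.11 to 5.83 with a median of 5.57 in males. Its difference was -0.50 ± 0.12 (adjusted p = 0.0109), and -0.33 without the 3 males (adjusted p = 0.0848). The highest values were those of male fish 66 and 11. Tnfrsf1a, the receptor through which tumour necrosis factor signals, ranged from 3.32 to 4.12 in females (median 3.75) and from 3.72 to 4.54 in males (median 4.17). It differed by -0.43 ± 0.13 (adjusted p = 0.0431), and by -0.23 without the 3 males (adjusted p = 0.335). Male fish 66 and 52 stood highest. Cd151l, a tetraspanin gene, ranged from 3.67 to 3.95 in females and from 3.85 to 4.35 in males (difference -0.29 ± 0.07, adjusted p = 0.0135, and -0.19 with adjusted p = 0.111 without the 3 males). Coro1b, an actin-binding coronin, differed by -0.25 ± 0.07 (adjusted p = 0.0328) but lay below the array's median in all 17 fish. Its difference was -0.27 without the 3 males (adjusted p = 0.0745).

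The pair of genes higher in females were ikzf5 and tnfrsfa. Ikzf5, a zinc finger gene of the Ikaros family, ranged from 3.93 to 4.56 in females and from 3.54 to 4.08 in males (difference 0.30 ± 0.09, adjusted p = 0.0314). Its difference was 0.32 without the 3 males (adjusted p = 0.0715). Tnfrsfa, a receptor gene of the tumour necrosis factor receptor superfamily, ranged from 5.56 to 5.97 in females and from 5.05 to 5.77 in males. The difference of its brightest probe set was 0.29 ± 0.09 (adjusted p = 0.0324). Its 2 dimmer probe sets differed by -0.15 (adjusted p = 0.141) and -0.02 (adjusted p = 0.927), so the probe sets of this gene disagreed. Without the 3 males the brightest differed by 0.17 (adjusted p = 0.212).

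**Figure D2:**
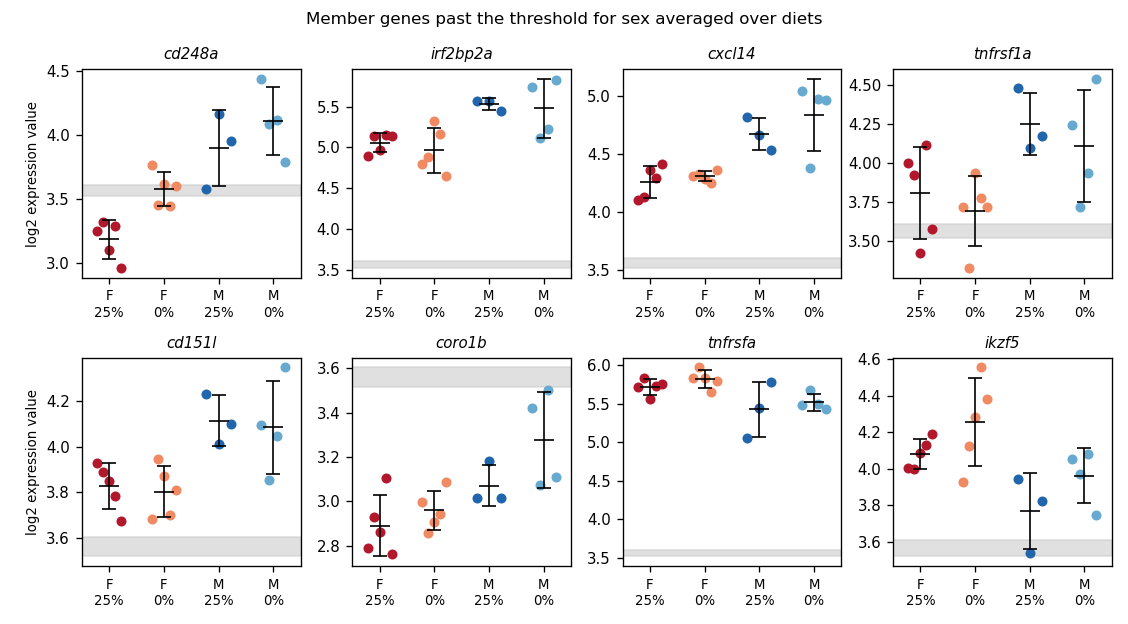
Log2 expression values of the 8 genes called for sex averaged over diets, with 1 point per fish in females (F) and males (M) on 25% and 0% carbohydrate, mean and SD in black, and the medians of the 17 arrays as a grey band. Cd248a separates the sexes within each diet, cxcl14 overlaps only through male fish 26, and coro1b lies below the band.

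Genes of the JAK, STAT and SOCS pathway had the lowest median sex difference of any role (-0.50 over 8 genes, 7 of them negative). Of the 8, 0 passed, where 13.6% of all probe sets did. The median of the 8 genes was -0.62 without male fish 11, 52 and 66, with all 8 negative. Socs3a, an inhibitor that STAT3 induces in mammals, varied most. It measured 4.43, 5.17, 6.26, 6.95 and 6.48 in females on 25% and 4.06, 4.35, 5.38, 5.09 and 3.74 in females on 0%. In males it measured 7.47, 7.99 and 7.66 on 25% and 6.71, 4.75, 3.81 and 8.43 on 0%. The 3 males on 25% lay above all females, while males on 0% spanned nearly the whole range. The sex difference was -1.62 ± 0.56 (adjusted p = 0.066), and -0.86 without the 3 males (adjusted p = 0.258). It passed in the fit on the brighter probe sets (adjusted p = 0.0474). Socs1a ranged from 4.26 to 5.34 in females and from 4.52 to 7.45 in males, with male fish 54 (7.45) and 52 (7.08) far above the rest. It differed by -1.05 ± 0.35 (adjusted p = 0.0554), and its dimmer probe set by -1.05 with adjusted p = 0.0109. The brightest probe set passed in the fit on the brighter probe sets (adjusted p = 0.0396). The mean of the socs1a probe sets also passed (adjusted p = 0.0276), so the call on socs1a depends on the probe set and the fit. Neither probe set passed without the 3 males, at -0.68 (adjusted p = 0.342) and -0.86 (adjusted p = 0.0854). Socs3b differed by -0.79 ± 0.29 (adjusted p = 0.0843) and by -0.91 without the 3 males (adjusted p = 0.0577). Among the kinase genes, jak1 differed by -0.21 ± 0.15 (-0.13 without the 3 males) and averaged 7.35 over all fish, and jak2b averaged 5.62.

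In the NF-kB group 0 of 7 genes passed, where 13.6% of all probe sets did. The median of the 7 was -0.40 (-0.14 without the 3 males). The group holds the I-kB genes nfkbiaa, nfkbiab and nfkbib, the subunit genes nfkb2 and relb, nfkbiz and tlr21, of which tlr21 and relb lay below the array's median in every fish. Nfkbiab, an I-kB gene that NF-kB itself induces in mammals, measured 5.94, 6.98, 6.85, 7.39 and 8.05 in females on 25% and 5.91, 6.29, 6.61, 6.46 and 5.70 in females on 0%. In males it measured 8.15, 7.67 and 8.22 on 25% and 7.40, 6.30, 6.37 and 7.65 on 0%. Females on 0% lay below all males on 25%. The sex difference was -0.85 ± 0.28 and just missed the threshold (adjusted p = 0.052), and it passed with arrays centred on their medians (adjusted p = 0.0461), among the brighter probe sets (0.0372) and with the trend and robust settings (0.0467). It did not pass without the 3 males, at -0.52 ± 0.30 (adjusted p = 0.33). Nfkbiaa was highest in male fish 11 (7.78), 52 (7.38) and 66 (7.34), followed by female fish 25 (7.03) and 49 (7.0).

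Irf7 and tnfsf10l were high in a few fish, while irf1b varied widely between fish of both sexes. Irf7, the factor that amplifies the interferon response, measured 9.50 in male fish 52, 8.39 in male fish 66, 6.96 in female fish 10, 6.72 in male fish 11 and 6.32 in female fish 49, and at most 5.41 in the other 12 fish. Its sex difference was -1.30 ± 0.63 (adjusted p = 0.182), and -0.03 without male fish 11, 52 and 66. Irf1b, an interferon-responsive factor, ranged from 3.65 to 7.12 in females and from 3.92 to 8.06 in males, and its difference moved likewise, at -0.87 ± 0.64 with all fish and 0.00 without the 3 males. Tnfsf10l, a gene of the TRAIL family of death ligands, measured 6.22 in male fish 52, 5.24 in male fish 66 and 4.43 in male fish 11, and 3.54 to 3.91 in the other 14. The difference was -0.72 ± 0.30 (adjusted p = 0.125), and -0.06 without the 3 males. Of the 10 IRF group genes 1 was called, where 13.6% of all probe sets were. It was irf2bp2a, whose mammalian product binds IRF2, as described above. Irf1a and irf2a lay below the array's median in every fish. Ifngr2, a subunit gene of the interferon gamma receptor, averaged 4.03 and was highest in female fish 49 (4.79).

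Every fish held the highest value of at least 1 gene, in unequal numbers. Male fish 11 held the highest value of 19 of the 95 genes and ranked among the top 3 for 45. Male fish 52 held 10 and 31, male fish 54 held 10 and 20, female fish 25 held 8 and 18, and male fish 30 held 8 and 22. Female fish 49 led the females on 25%, with 6 and 21. Female fish 24 ranked among the lowest 3 for 42 genes and female fish 51 for 32. The same ranks were not counted over all probe sets, so whether they are particular to this set is not known. The interferon-induced genes outside the set averaged 5.91 in male fish 52, against 3.93 to 5.01 in the other 16. In fish 11, 52 and 66 these values stood beside the high intestinal markers given above, and the part of intestinal RNA in them was not tested. Female fish 49 had an intestinal mean of 5.07.

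**Figure D3:**
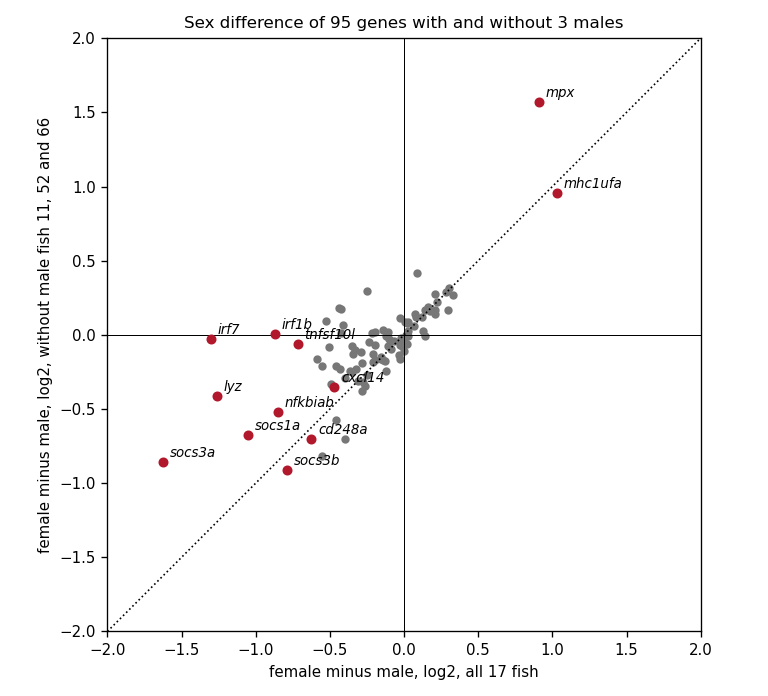
Female minus male log2 difference of each of the 95 genes with all 17 fish (horizontal) and without male fish 11, 52 and 66 (vertical); the dotted line marks equal values, and genes in red are described in the text. Irf7, irf1b and tnfsf10l fall to the zero line without the 3 males, cd248a stays near the dotted line, and mpx moves away from zero.

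**Figure D4:**
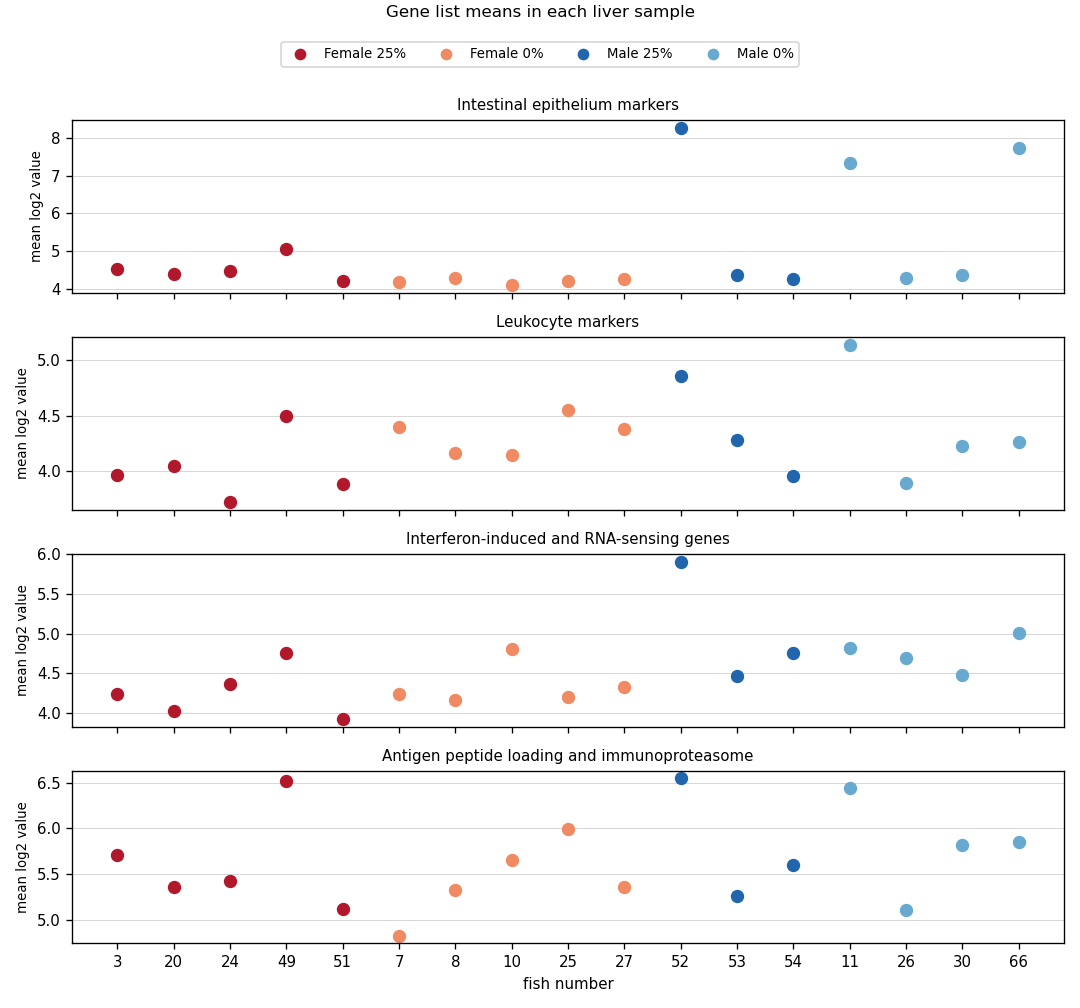
Mean log2 value of 4 gene lists in each fish, by fish number, with colours for females and males on 25% and 0% carbohydrate. Intestinal markers stand apart in male fish 52, 11 and 66; leukocyte markers are highest in male fish 11, and peptide loading genes are high in female fish 49 and male fish 52 and 11.

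MHC genes varied between fish within every group. For sex 0 of 12 passed (median -0.10, and -0.08 without the 3 males), where 13.6% of all probe sets did. Mhc1ufa, a class I gene, varied most of all 95 genes. It measured 8.27, 3.39, 7.02, 9.57 and 7.27 in females on 25% and 7.72, 7.84, 8.90, 2.79 and 8.21 in females on 0%. In males it measured 9.18, 8.36 and 4.86 on 25% and 2.5, 4.88, 6.48 and 4.84 on 0%. Female fish 20 and 25 and male fish 11 lay below the array's median, while 11 of the other 14 exceeded 6. B2m, which pairs with class I molecules, was 9.60 in female fish 20, 10.33 in female fish 25 and 10.39 in male fish 11, within the range of the other fish (9.18 to 10.61). Mhc1uda, another class I gene, reached 5.64 in female fish 49, 5.28 in male fish 52 and 4.73 in male fish 30 and was at most 3.90 elsewhere. A probe set for 1 class I sequence may not read all alleles or haplotypes alike, and near-identical class I genes may share signal. Neither was tested here.

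The invariant chain genes cd74a and cd74b moved together across fish. The 6 fish with the highest cd74a were the 6 with the highest cd74b: female fish 8, 25, 27 and 49 and male fish 11 and 30. Cd74a measured 9.66, 9.44, 8.88, 10.98 and 8.70 in females on 25% and 9.56, 10.97, 10.28, 10.87 and 11.02 in females on 0%. It measured 10.03, 9.96 and 9.13 in males on 25% and 10.98, 9.93, 11.49 and 9.72 in males on 0%. Both diets overlapped in both sexes. The class II genes mhc2daa and mhc2d4b lay mostly below the array medians, and rose above 4 only in female fish 25 and male fish 11 and 30 for mhc2daa and in male fish 11 for mhc2d4b.

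**Figure D5:**
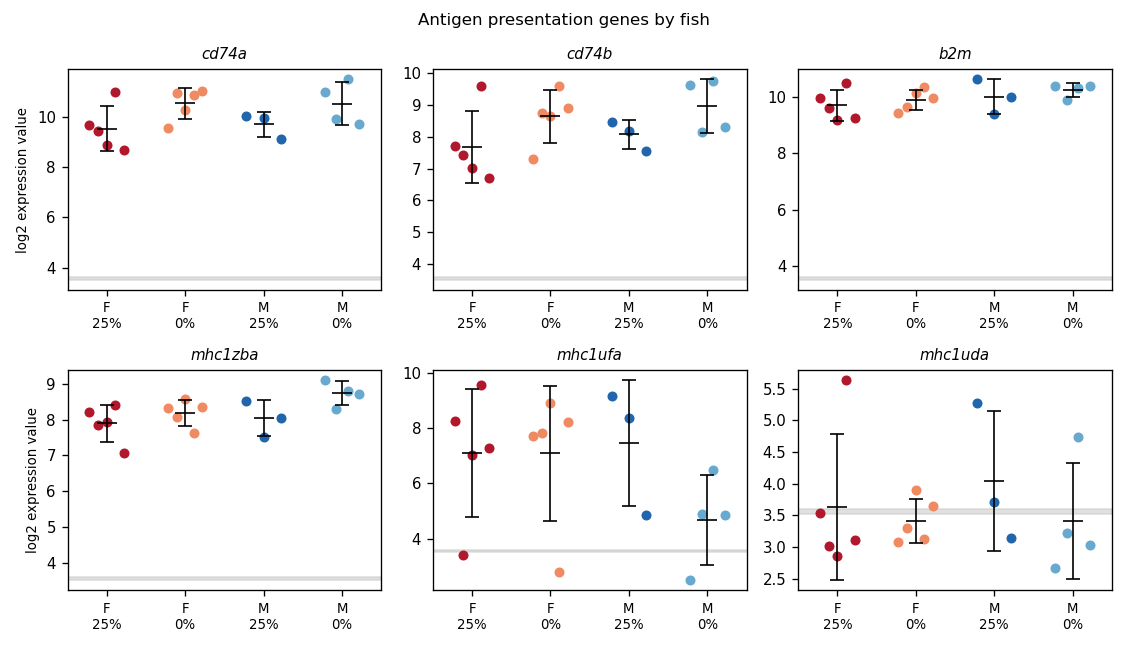
Log2 expression values of 6 antigen presentation genes, with 1 point per fish in females (F) and males (M) on 25% and 0% carbohydrate, mean and SD in black, and the medians of the 17 arrays as a grey band. Mhc1ufa spans 2.5 to 9.57 and mhc1uda 2.66 to 5.64, while b2m stays between 9.18 and 10.61.

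The 12 leukocyte cytoplasmic, granule and lineage genes had a median level of 3.99, with 4 averaging below the array medians. Of the 12, 2 were called for sex, where 13.6% of all probe sets were. These were coro1b and ikzf5 (above), neither of which is on the fixed list of leukocyte markers. With all fish, none of ptprc, lcp1, coro1a, mpx, lyz, spi1b, rag1, rag2 and ikzf1 passed for sex. Lcp1, the leukocyte plastin that bundles actin, averaged 4.69, coro1a, the leukocyte coronin, 5.36 and ptprc, the pan-leukocyte phosphatase CD45, 3.78. The lymphocyte recombinase gene rag1 lay below the array's median in all 17 fish and rag2 in 14, and ikzf1 (Ikaros) in 15. Lcp1 ranged from 3.78 to 5.66 in females and from 4.35 to 5.64 in males. Its 6 highest fish shared 5 with those of coro1a and 5 with those of ptprc: female fish 25 and 49 and male fish 11, 30 and 52. Spi1b, the myeloid factor PU.1, averaged 3.94 and lay below the median in 2 fish.

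Lyz and mpx are granule genes. Lyz, the lysozyme gene of zebrafish myeloid cells, measured 7.80 in male fish 52, 7.35 in male fish 11, 6.17 in male fish 53 and 6.08 in female fish 7, and 3.96 to 4.77 in the other 13. Its difference was -1.26 ± 0.50 (adjusted p = 0.106), and -0.41 without the 3 males. Mpx, the neutrophil peroxidase gene, was 5.33 to 7.23 in females with a median of 6.26, and 4.14 to 6.75 in males with a median of 5.83. Male fish 26, 54 and 30 stood lowest, at 4.14, 4.18 and 4.64. The difference was 0.91 ± 0.39 (adjusted p = 0.135) with all fish, and 1.57 ± 0.35 without the 3 males (adjusted p = 0.0148). Its other 3 probe sets differed by between -0.05 and 0.34 with all fish, with adjusted p of 0.655 or more. Without the 3 males they differed by 0.60, -0.06 and -0.02, with adjusted p of 0.585 or more, so the call rested on the brightest probe set.

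Chemokine genes had 1 of 12 called for sex, cxcl14 (above), where 13.6% of all probe sets were. The median sex difference of the 12 was -0.13, and 0.10 without the 3 males. Ccl19a.1, a homologue of the chemokine that draws dendritic and T cells in mammals, ranged from 4.80 to 8.71 in females and from 5.85 to 8.54 in males, with female fish 3 and male fish 11 highest. Ccl25b averaged 5.67 and ranged from 4.73 to 6.71. Cxcl12a and cxcl12b encode the ligand of the Cxcr4 receptors. Cxcl12a measured 6.32 in male fish 52, 5.47 in female fish 49, 5.02 in female fish 7 and 4.99 in male fish 66, and cxcl12b was 4.90 in male fish 52 and 4.02 in male fish 66 and at most 3.35 elsewhere. The receptor gene cxcr4a lay below the array's median in all 17 fish and cxcr4b in 12. Of 15 other genes with CD symbols 2 were called (cd248a and cd151l), again against 13.6% of all probe sets. Cd164 just missed the threshold, at -0.46 ± 0.15 (adjusted p = 0.0581), and passed in the fit on the brighter probe sets (adjusted p = 0.0463). Its difference was -0.21 without the 3 males (adjusted p = 0.273). On 25% cd164 measured 7.51, 8.03, 7.79, 7.84 and 7.47 in females and 8.82, 7.55 and 7.69 in males, where only male fish 52 lay above the females. On 0% it measured 7.70, 7.82, 7.71, 8.06 and 8.05 in females and 8.51, 8.42, 8.37 and 8.68 in males, without overlap. Of 13 tumour necrosis factor genes 2 were called, tnfrsf1a and tnfrsfa, where 13.6% of all probe sets were. The others ranged from tnfsf10l at -0.72 upwards. Tnfaip1 and tnfsf10l4 averaged 4.50 and 4.40.

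The diet comparisons asked whether 25% carbohydrate changed these genes. In females 0 of 95 genes passed in limma, where 2.1% of all probe sets did. An unadjusted p under 0.05 was found for 11 of the 95, and the share of all probe sets at that threshold was not counted. The median difference was -0.11, with 70 negative and 25 positive, against -0.03 over all probe sets, of which 40.2% were positive. The median standard error was 0.15. The lowest adjusted p was that of cd248a, which differed by -0.39 ± 0.13 (adjusted p = 0.175). Without the 3 males, which share the spread of the fit, cd248a passed at -0.39 (adjusted p = 0.0372), where 2.35% of all probe sets did. Cd74a differed by -1.01 ± 0.45 (adjusted p = 0.356), cd74b by -0.95 ± 0.53 (adjusted p = 0.488), socs3a by 1.34 ± 0.71 (adjusted p = 0.466) and nfkbiab by 0.85 ± 0.35 (adjusted p = 0.319). Cd248a did not overlap between the female diets, while the diets overlapped in the other 4 genes, and female fish 49 stood above the other females on 25% for cd74a and cd74b. Of 18 ovary markers, 14 were higher on 25%, and the part of ovary RNA in the negative median was not tested.

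In males 0 of 95 genes passed in limma, where 0.116% of all probe sets did. Of the 95, 6 had an unadjusted p under 0.05, again without a counted share of all probe sets. The lowest adjusted p belonged to stat3, the transcription factor downstream of interleukin 6 receptors. It measured 6.32, 6.72 and 6.01 in males on 25% and 4.99, 5.45, 4.99 and 4.60 in males on 0%, without overlap. The difference was 1.34 ± 0.32 (adjusted p = 0.159). In females stat3 measured 5.19, 5.66, 6.03, 5.19 and 5.09 on 25% and 4.91, 5.10, 5.49, 4.10 and 5.46 on 0%, where the diets overlapped. Socs3a differed by 1.78 ± 0.86 between the male diets (adjusted p = 0.62), nfkbiab by 1.08 ± 0.42 (adjusted p = 0.486) and cd74a by -0.82 ± 0.54 (adjusted p = 0.763). The tetraspanin gene cd9b differed by -0.76 ± 0.23 (adjusted p = 0.346), with 6.56, 6.54 and 6.29 on 25% and 6.90, 7.14, 7.73 and 7.11 on 0%. Stat3, cd9b, socs1a, socs3b, tnfsf10l, cxcl12b, tnfaip6 and nfkb2 were singled out after their values were seen. So were the class I and II genes and the genes named for lying below the array medians. The median standard error was 0.18 with 3 and 4 fish, so differences of the size seen for many members could not be resolved.

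For the interaction, the diet difference of males was subtracted from that of females. Here 0 of 95 genes passed in limma, where 0.697% of all probe sets did. Of the 95, 1 gene (stat3) had an unadjusted p under 0.05, a threshold at which the share of all probe sets was not counted. Stat3 differed by -0.92 ± 0.41 (adjusted p = 0.775). No difference in diet response between the sexes was thus resolved for any of these genes. The diet differences of socs3a, nfkbiab and cd74a had the same sign in both sexes. Within single diets, the sex comparison called 1 of 95 genes on 25% (1.05%, against 4.91% of all probe sets) and 2 of 95 on 0% (2.11%, against 3.33%), which were cd248a and cxcl14 as above. Without the 3 males these counts were 2 on 25%, cd248a and socs3b (4.95% of all probe sets), and 1 on 0%, cd248a (1.96%).

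Related genes outside the set were counted from lists. With all fish and averaged over the diets, 5.57% of all probe sets were lower in females and 8.02% higher. Among 17 adaptors and kinases of toll-like receptor and tumour necrosis factor signalling, 2 were lower in females: birc2, an inhibitor of apoptosis that ubiquitinates proteins at the receptor, at -0.51 ± 0.09 (adjusted p = 0.00095), and tradd, the adaptor of the tumour necrosis factor receptor, at -0.56 ± 0.16 (adjusted p = 0.0328). Birc2 ranged from 6.02 to 6.62 in females and from 6.47 to 7.08 in males. Among 8 interferon-induced and RNA-sensing genes, 2 were lower: trim25, a ubiquitin ligase of RNA sensing, at -0.98 ± 0.20 and mavs, the mitochondrial adaptor of RNA sensing, at -0.43 ± 0.13. Among 8 further cytokine receptor and ligand genes, 2 were lower, the class II cytokine receptor genes crfb4 (-0.63 ± 0.16) and crfb1 (-0.41 ± 0.08). Trim25, birc2, crfb4 and crfb1 also passed without the 3 males, and tradd and mavs did not. In that fit map3k7 (-0.36) and tollip (-0.44) of the adaptor and kinase list passed as well, lower in females. So did ghrb (-1.03) of the cytokine receptor and ligand list. Of all probe sets, 9.37% passed in that fit in either direction.

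Of 19 phagocyte and leukocyte signalling genes 1 was lower in females, plcg2 (-1.13 ± 0.26), which did not pass without the 3 males. The shares of all probe sets with all fish were 5.57% lower and 8.02% higher, as above. Of 17 blood lineage transcription factors 3 were lower: cebpd (-1.12 ± 0.35) and cebpg (-0.61 ± 0.09), which belong to the C/EBP family, and etv6 (-0.34 ± 0.10). Cebpg also passed without the 3 males, and cebpd and etv6 did not. Of 13 peptide loading and immunoproteasome genes 1 was higher, ctss2.1, a cathepsin S gene whose mammalian counterpart trims the invariant chain. It ranged from 4.46 to 8.66 in females and from 3.64 to 5.72 in males, a difference of 2.11 ± 0.37 (adjusted p = 0.00165), and 2.66 without the 3 males (adjusted p = 0.00171). It was also higher in females on 25% than in females on 0%, by 2.40 ± 0.48 (adjusted p = 0.0102). Ctss2.1 was the only gene of these 6 lists to pass there, where 2.1% of all probe sets did. The group means were 8.12 in females on 25% and 5.72 in females on 0%, with 4.67 in males on 25% and 4.97 in males on 0%. Ovary markers were likewise highest in females on 25%, and the part of ovary RNA in the ctss2.1 difference was not tested.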

How the data were processed

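Liver RNA of 17 zebrafish was measured on Affymetrix arrays, 1 per fish. The deposited log2 values are the authors' normalized signals per probe set. Base 2 was inferred from their range (1.82 to 14.38). MAS5, RMA, GCRMA and PLIER all appear in the submitters' processing notes, and which of them gave these values is not stated there. Background correction and detection calls are not given in the sources used here. Precision is set by the number of arrays.

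Of 15617 probe sets 115 controls were left out. Of the rest, 10795 carried 1 platform symbol, 135 several and 4572 none. Of the 95 genes, 93 were matched by Entrez ID to the current annotation, with 0 changed symbols; 19 had several probe sets. Groups follow the fish labels. The 4 group means were fitted with limma 3.58.1 in R 4.3.3 (lmFit, eBayes), with 6 contrasts and Benjamini-Hochberg adjustment over 15502 probe sets at 0.05. The model was tested on simulated data. Named genes are the called members, the 3 brightest of each role, a fixed list of leukocyte markers and, of other lists, at most the 3 highest and 3 lowest calls. The genes and lists were chosen with earlier results of these data known.

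Alternatives were quantile normalization, median centring, a fit on the brighter probe sets, trend and robust settings in eBayes, fits on the compared groups alone, averaged probe sets per gene, leaving out male fish 11, 52 and 66, and leaving out each fish.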

Additional observations from a re-analysis of the deposited data

Results flagged for a closer look

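Within the groups of 4 or 5 fish, 174 combinations of gene and group were examined (58 genes), and in 16 the highest or lowest fish stood apart from the others by Dixon's criterion. For genes chosen without regard to their values, chance flags about 1 in 20 groups. Some of the 58 genes, such as mhc1ufa, mhc2d4b and nfkb2, were singled out after their values were seen. That rate does not hold for them, and their flags are descriptions only. Genes that vary together across fish are also not independent. Female fish 49 on 25% was the highest of its group in 6 of them: coro1a at 6.4 (others up to 4.77), lcp1 at 5.49 (up to 4.16), ifngr2 at 4.79 (up to 3.80), nfkb2 at 4.51 (up to 3.82), mhc1uda at 5.64 (up to 3.54) and mhc2d4b at 3.42 (up to 2.54). The first 5 lay above the array's median. The leukocyte marker mean of fish 49 was 4.50, against 3.73 to 4.05 in the other females on 25%.

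Female fish 25 on 0% stood highest for ptprc at 4.71 and socs3b at 5.57 and lowest for mhc1ufa at 2.79, where the other 4 females on 0% lay between 7.72 and 8.90. Female fish 10 on 0% stood highest for irf7 at 6.96 and lowest for tnfsf10l4 at 4.05. Male fish 11 on 0% stood highest for ccl25b at 6.71 and mhc2d4b at 5.15. Male fish 26 on 0% stood lowest for cxcl14 at 4.38, where the other 3 lay between 4.96 and 5.04. Female fish 24 on 25% stood lowest for rag2 at 2.89 and female fish 20 for il17rd at 3.03, with both values below the array medians.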

How the results depend on the processing

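The number of genes called for sex averaged over diets was 8, between 8 and 11 under quantile normalization, median centring, the brighter probe sets, trend and robust settings and probe set means, and 4 without male fish 11, 52 and 66, of which 2 (cd248a and cxcl14) were among the 8. Leaving out 1 fish gave 5 to 11, with 5 without female fish 8 or 51 or male fish 66. On 25% the count of 1 became 2 with only the groups compared, with probe set means and without the 3 males, and ranged from 1 to 2 when 1 fish was left out (2 without female fish 25 or 27 or male fish 26, 52 or 54). On 0% the count of 2 became 1 with only the groups compared (cd164 in place of the pair) and 1 without the 3 males, and ranged from 0 to 3 (0 without female fish 7 or 8 or male fish 11 or 30). Cd248a kept its call on 0% in the leave-one-out fits only without female fish 51 or male fish 52, 53 or 66. For diet in females the count of 0 became 1 without the 3 males (cd248a) and stayed at 0 without any 1 fish. For diet in males it was 0, and 1 (cd164) without male fish 52. For the interaction it was 0 throughout. Cd248a and cxcl14 kept their averaged calls in every fit (highest adjusted p = 0.00297 and 0.0373). When 1 fish was left out, tnfrsf1a lost its call in 12 of 17 fits (all but those without female fish 3, 10 or 49 or male fish 26 or 30, highest adjusted p = 0.115), tnfrsfa in 9 (female fish 7, 8, 20 and 51, male fish 11, 30, 52, 53 and 66, 0.0831, and 0.688 over all alternatives), coro1b in 8 (female fish 3, 8, 10 and 51, male fish 11, 30, 52 and 53, 0.0851) and ikzf5 in 4 (without female fish 27 or 51 or male fish 53 or 66, 0.0905), while cd151l and irf2bp2a kept theirs. With median centring ikzf5 also lost its call. Tnfrsfa also lost its call with the trend and robust settings and with probe set means. The cause was not tested. No called difference changed sign. Over all probe sets, the counts with only the groups compared were 394 instead of 761 for sex on 25%, 337 instead of 516 for sex on 0% and 0 instead of 18 for diet in males. Without the 3 males they were 304 for sex on 0%, 28 for diet in males and 15 instead of 108 for the interaction. No paired analysis was possible because the fish numbers are not shared between groups. Array signal limits the 20 genes below the array's median in every fish.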
